A study of Mus musculus with 10 samples.

Results

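Synaptic vesicle and exocytosis genes encode the machinery that stores transmitters or hormones in vesicles and releases them when calcium enters the cell. Fusion is driven by SNARE proteins: a protein on the vesicle (Vamp2) pairs with a syntaxin and Snap25 on the cell membrane. Synaptotagmin senses the calcium and complexin holds the assembled SNAREs ready, while Rab3a and synapsins tether vesicles before release. Nerve endings and neuroendocrine cells share this set, and in the prostate both occur: autonomic nerves run through the stroma, and scattered neuroendocrine cells lie in the epithelium. Synaptophysin (Syp) is widely used as a tissue marker of neuroendocrine prostate tumours.

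The set was fixed by name as 9 genes, Syt1, Syp, Snap25, Stx1a, Sv2a, Vamp2, Syn1, Cplx2 and Rab3a, of 19938 genes in the series. Each gene was represented by its probe set with a single gene symbol and the highest mean over all arrays. Of the 9 genes, 8 had such a probe set, 1 probe set each. Vamp2 shared its only probe set with another gene symbol in the platform annotation and has no value here. All 8 passed the filter on low values, a mean over the 10 arrays above 6.55 log2 units, and the mean of the water mice alone was also above it in each.

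RNA from the prostates of 10 TRAMP mice was profiled on whole-transcript arrays, with 1 array for each mouse. All 10 mice carry the TRAMP transgene, a viral T antigen driven in prostate epithelium by the promoter of Pbsn (probasin). The age at the start was 8 to 9 weeks. From then on, 5 controls received plain tap water, and 5 others had 250 µg/ml of nicotine, from the tartrate salt, added to it. The mouse is the replicate; with 5 arrays in a group the number of arrays limits how small a difference can be told.

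Nicotine 1 and nicotine 3 stood apart over the whole array. Across 14953 tested genes, nicotine 3 correlated with the rest at a median of 0.654 and nicotine 1 at 0.880, against 0.983 to 0.988 for the other 8. The secretory gene Pbsn, which should mark any prostate, was at 5.08 in nicotine 3, at 9.17 in nicotine 1 and from 10.86 to 12.20 in the others. The mean of 8 prostate luminal markers was 7.94 in nicotine 3 and 11.1 in nicotine 1, against 11.6 to 11.8 in the other 8 mice. Results are therefore given with and without these mice.

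The vesicle genes were high in nicotine mice 1 and 3, and in the other 8 mice their levels overlapped between the groups. All 8 measured genes were above every water mouse in both of these prostates. Of all tested genes, 34.1% lay above every water mouse in nicotine 1 and 38.0% in nicotine 3. A stricter mark, at least 2 log2 units above the water mean, was reached by 5 of the 8 genes in each of these mice, against 1.48% of all genes in nicotine 1 and 3.78% in nicotine 3. In nicotine 2, 4 and 5 respectively, 1, 2 and 0 of the 8 genes lay above every water mouse, where 23.0%, 15.6% and 17.5% of all genes did. No group difference passed the test: by limma with Benjamini-Hochberg adjustment over all tested genes, 0 of 8 were past an adjusted p of 0.05, as were 0% of all genes. At an unadjusted p under 0.05 there was 1 of 8, where 10.1% of all genes were called, and with weights that count aberrant arrays less there were 0, where 25.0% of all genes were called; no vesicle gene passed after adjustment there.

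**Figure D1:**
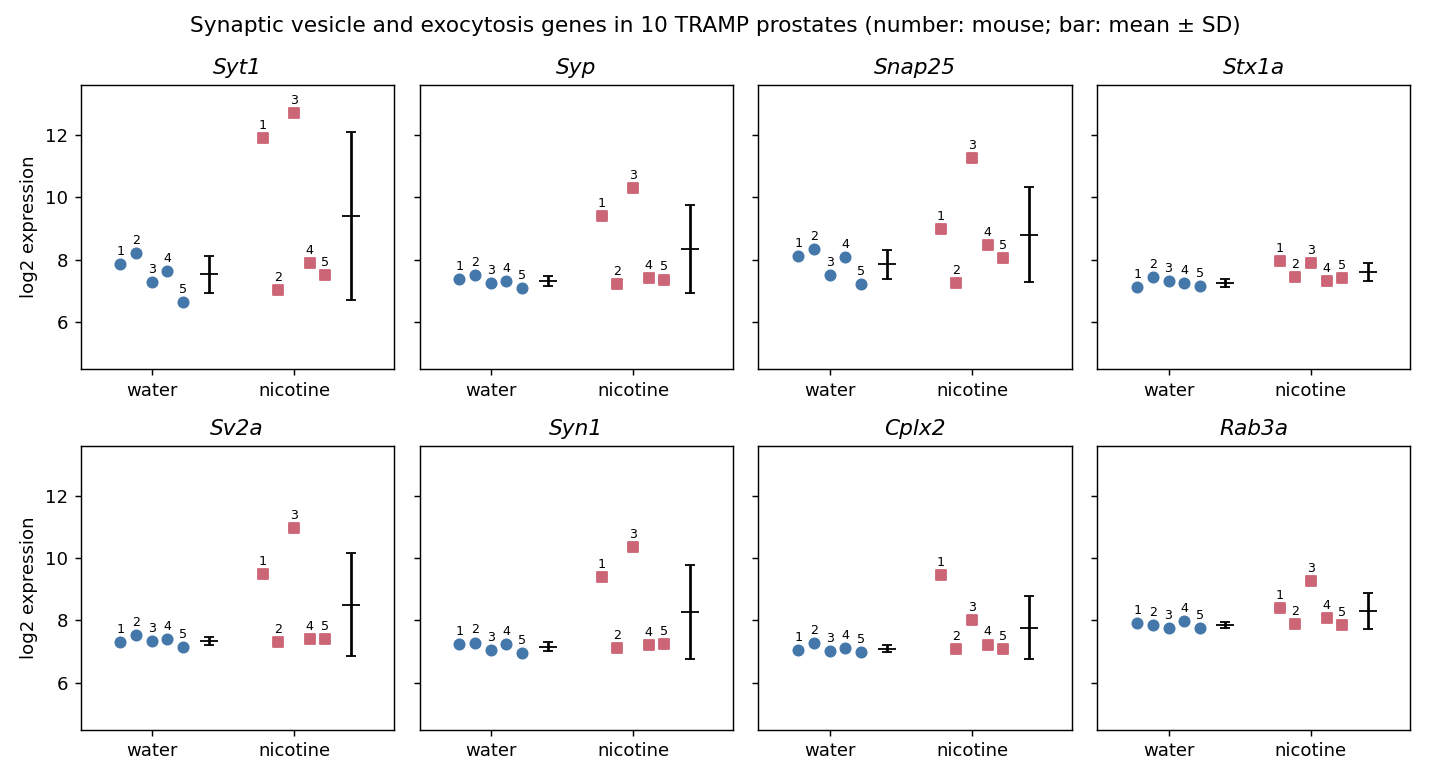
Log2 expression of the 8 measured vesicle and exocytosis genes in each mouse (circles, water; squares, nicotine; the digit is the mouse number), with the group mean and SD as a bar. Nicotine mice 1 and 3 lie above all water mice in every panel, and Syt1 and Snap25 have the widest spread among the remaining mice.

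The SNARE genes come first. Snap25 encodes the membrane SNARE that contributes a pair of helices to the fusion complex. Its level was 8.11, 8.33, 7.51, 8.07 and 7.21 log2 units in water mice 1 to 5 and 8.98, 7.25, 11.27, 8.46 and 8.07 in nicotine mice 1 to 5. Nicotine 3 was the highest by far, nicotine 1 and 4 were slightly above the water range, and nicotine 2 lay at its lower end, so the groups overlapped. The difference, nicotine minus water, was 0.96 ± 0.64 log2 units (SE), with an adjusted p of 0.469 by limma. Without nicotine mice 1 and 3 it was 0.08 ± 0.29.

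Stx1a encodes syntaxin 1A, the partner of Snap25 in the cell membrane. It was at 7.12, 7.44, 7.31, 7.25 and 7.16 under water, and under nicotine at 7.96, 7.46, 7.88, 7.32 and 7.40. Nicotine 1 and 3 were again highest, nicotine 2 was just above the highest water mouse, and nicotine 4 and 5 lay inside the water range. The difference was 0.35 ± 0.14 log2 units (SE), the smallest of the 8 genes in size. It had the smallest unadjusted p of the 8, 0.0308, and an adjusted p of 0.458 by limma. Without nicotine mice 1 and 3 the difference was 0.14 ± 0.08, the largest of the 8 in that fit.

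Syt1, synaptotagmin 1, is the calcium sensor of fast release. Its level was 7.86, 8.23, 7.30, 7.64 and 6.65 log2 units under water and 11.89, 7.02, 12.71, 7.89 and 7.50 in nicotine mice. Nicotine 3 was 36.0-fold and nicotine 1 20.5-fold above the water mean, the widest excess among the 8 genes, while the 3 other nicotine mice lay inside the water range. The difference of 1.87 ± 1.11 log2 units (SE) had an adjusted p of 0.458 by limma, and it turned to -0.07 ± 0.31 without nicotine mice 1 and 3.

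Cplx2 encodes complexin 2, which clamps and primes the assembled SNAREs. It was at 7.05, 7.28, 7.03, 7.11 and 6.997 under water, and under nicotine at 9.44, 7.08, 8.01, 7.23 and 7.09. Here nicotine 1, not nicotine 3, was highest, with 5.09-fold against 1.89-fold over the water mean. The other 3 nicotine mice lay inside the water range. The difference was 0.68 ± 0.41 log2 units (SE; adjusted p = 0.461 by limma) over all mice and 0.04 ± 0.07 without nicotine mice 1 and 3.

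Syp and Sv2a are membrane proteins of the vesicle itself. Syp, synaptophysin, was at 7.38, 7.52, 7.26, 7.33 and 7.09 under water, and under nicotine at 9.39, 7.23, 10.30, 7.40 and 7.36. Nicotine 3 was 7.92-fold and nicotine 1 4.22-fold above the water mean, and the rest were inside the water range. The difference was 1.02 ± 0.58 log2 units (SE; adjusted p = 0.458 by limma), and 0.02 ± 0.09 without nicotine mice 1 and 3.

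Sv2a encodes a vesicle glycoprotein that supports calcium-triggered release. Its level was 7.32, 7.52, 7.33, 7.41 and 7.14 under water and 9.47, 7.30, 10.96, 7.40 and 7.42 under nicotine. Nicotine 3 was highest, 12.2-fold above the water mean, nicotine 1 was next at 4.37-fold, and the other nicotine mice lay inside the water range. The difference was 1.17 ± 0.67 log2 units (SE; adjusted p = 0.458 by limma), and 0.03 ± 0.08 without nicotine mice 1 and 3.

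Syn1 and Rab3a act on the outer face of the vesicle. Syn1, synapsin 1, holds vesicles in a reserve pool, and it was at 7.23, 7.29, 7.05, 7.25 and 6.97 under water, and under nicotine at 9.39, 7.13, 10.35, 7.22 and 7.24. Nicotine 3 was 9.16-fold and nicotine 1 4.69-fold above the water mean, and the other nicotine mice were inside the water range. The difference was 1.11 ± 0.61 log2 units (SE; adjusted p = 0.458 by limma), and 0.04 ± 0.08 without nicotine mice 1 and 3.

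Rab3a encodes the small GTPase that brings vesicles to release sites. Its level was 7.91, 7.85, 7.75, 7.98 and 7.75 under water and 8.41, 7.87, 9.27, 8.08 and 7.86 under nicotine. Nicotine 3 stood out, nicotine 1 and 4 were modestly above the water range, and the groups overlapped through nicotine 2 and 5. The difference was 0.45 ± 0.24 log2 units (SE; adjusted p = 0.458 by limma), and 0.09 ± 0.08 without nicotine mice 1 and 3.

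**Figure D2:**
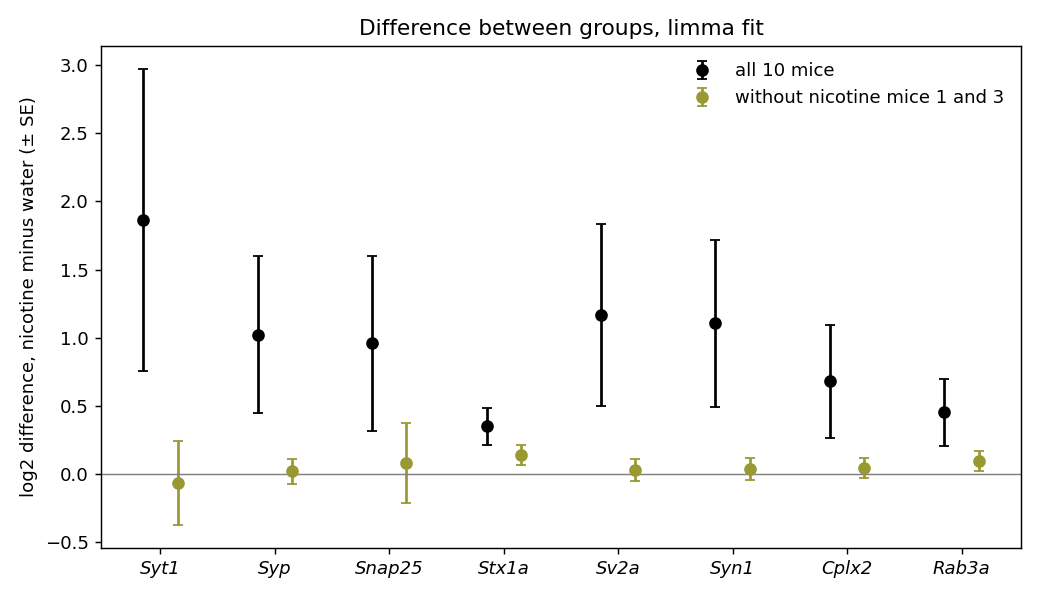
Log2 difference, nicotine minus water, with its SE from the limma fit, for each of the 8 genes over all 10 mice (black) and without nicotine mice 1 and 3 (olive). All 8 differences were positive over 10 mice, with a median of 0.99; in the fit of 8 mice the median was 0.04 and Syt1 was below 0.

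The 8 differences had a median of 0.99 log2 units, against 0.004 over all tested genes, and all 8 were positive, as were 50.7% of all genes. The groups overlapped in all 8, where 2.02% of all tested genes had every nicotine mouse above every water mouse. The SD in nicotine mice was larger than in water mice for each of the 8 genes, from 2.31 times for Stx1a to 11.6 times for Sv2a. Without nicotine mice 1 and 3, the median was 0.04, against 0.01 over all genes, 7 of 8 differences were positive, as were 53.5% of all genes, and 0 of 8 had an unadjusted p under 0.05, where 14.7% of all genes did. In these bulk samples, more or fewer cells of a type cannot be told apart from more or less RNA per cell.

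Since these genes were high in the same prostates, their promoters are shown for the letters they share. RefSeq start sites on GRCm38.p6 were matched for 7 of the 9 genes (9 starts), and the 250 bases before each start were searched on both strands. The 15 motifs searched, some overlapping, were the E-box CANNTG and its forms CAGCTG and CAGCTGC with a further base, the GC box GGGCGG and the KLF-type box GGGTGTGG with the C-rich box TGCCCCC in addition, the cyclic AMP response element TGACGTCA and its looser form TGACGTNA with the shared core TGACG as well, the RE1 parts TTCAGCACC and the shorter CAGCACC with its other end GGACAG, and 3 longer forms of the RE1 element; those described were chosen after their matches were seen. The E-box CAGCTG, a form that proneural transcription factors can bind, lay in 5 of the 9 windows, 1 each of Sv2a, Stx1a, Rab3a, Syt1 and Cplx2, and in 13.0% of all 32851 promoter windows of this length. It is 1 form of CANNTG, which was found in the same 5 windows and in 66.2% of all windows. The GC box GGGCGG lay in 5 of the 9 and in 32.7% of all windows. The windows around CAGCTG, in capitals, are given 5′ to 3′ along each gene, so that the unlike flanks can be compared. They lie at chr3:96180977-96181030 (+), chr5:135023422-135023481 (+), chr8:70754890-70754949 (+), chr10:109009112-109009169 (-) and chr13:54302367-54302426 (+), in the order printed.
Sv2a: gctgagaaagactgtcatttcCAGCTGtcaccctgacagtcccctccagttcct
Stx1a: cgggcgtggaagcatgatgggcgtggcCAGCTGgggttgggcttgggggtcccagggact
Rab3a: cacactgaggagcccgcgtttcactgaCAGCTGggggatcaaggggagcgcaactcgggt
Syt1: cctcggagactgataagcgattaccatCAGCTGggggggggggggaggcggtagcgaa
Cplx2: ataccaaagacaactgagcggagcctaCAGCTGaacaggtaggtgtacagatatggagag

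Syn1 had no CAGCTG but held a pair of rarer elements, and its window (chrX:20920919-20921168, - strand) is printed for that reason. TTCAGCACC, which forms the start of the RE1 element bound by the neuronal gene repressor REST, lay 232 bases before the start site and is found in 0.301% of all windows. TGACGTCA, the cyclic AMP response element, lay 159 bases before it and is found in 1.55%. The 3 longer forms, which span more of the RE1 element, were found as exact matches before 0 of the 7 genes. Near matches were not searched. In Syn1 the bases after TTCAGCACC read gcggtcag, with ggtcag in the place of the RE1 end GGACAG. Both matches in Syn1 are in capitals.
Syn1: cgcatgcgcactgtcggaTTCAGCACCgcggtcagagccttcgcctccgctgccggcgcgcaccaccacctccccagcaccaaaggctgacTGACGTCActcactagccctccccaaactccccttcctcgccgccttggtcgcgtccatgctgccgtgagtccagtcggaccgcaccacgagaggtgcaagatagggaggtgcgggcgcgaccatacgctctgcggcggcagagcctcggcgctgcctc

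Nicotine mice 1 and 3 did not carry the same vesicle gene profile. Nicotine 3 was the highest of all 10 mice in 6 of the 8 genes and nicotine 1 in Cplx2 and Stx1a, while 45.1% of all tested genes were higher in nicotine 3 than in nicotine 1. Snap25 was 2.29 log2 units higher in nicotine 3 than in nicotine 1, and for Cplx2 this difference was -1.43. Among 15 tested neuronal paralogues, 11 were higher in nicotine 3 than in nicotine 1. These 11 include Sv2c and Rab3c, by 1.18 and 0.75 log2 units. Both had water means under the filter and were tested because of their levels in these same mice. Some of the 15 were about even, such as Syt2, 0.16 log2 units higher in nicotine 3, and Syngr1, 0.47 higher. The 4 genes that follow were picked after their values were seen, for being uneven. Cplx1, the other neuronal complexin, was 3.57 log2 units above the water mean in nicotine 3 and 0.41 above it in nicotine 1, the reverse order of Cplx2. Syt5, another synaptotagmin, was 3.14 above in nicotine 1 and 1.57 in nicotine 3, and Syt4 was level with the water mean in nicotine 1 and 1.50 above it in nicotine 3. The Rab3a relative Rab3b was 1.15 above the water mean in nicotine 1 and 0.25 in nicotine 3. These are single mice, so the differences between them have no replicate check.

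**Figure D3:**
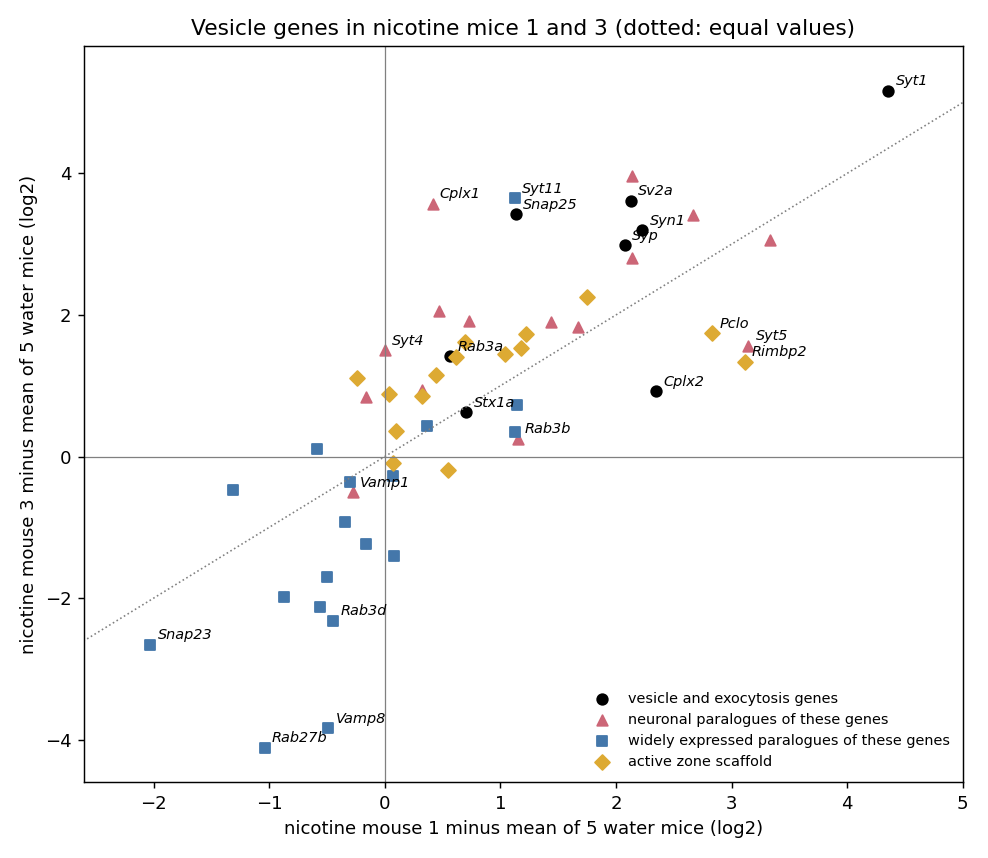
Log2 expression minus the mean of the 5 water mice in nicotine mouse 1 (x) and nicotine mouse 3 (y), 1 point per tested gene: the vesicle and exocytosis genes, their neuronal and widely expressed paralogues, and active zone genes. Syt1 is highest in both, Cplx1 and Cplx2 lie on opposite sides of the dotted line of equal values, and Vamp8 and Rab27b are lowest in nicotine 3.

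Other genes of vesicle release were taken from 6 lists by role, 103 genes in all, of which 93 were tested. Of the 93, 0 were past an adjusted p of 0.05 by limma, and 59 had a positive difference, against 50.7% of all genes. The 59 include Sv2c, Rab3c, Rimbp2, Erc2 and Amph. These genes had water means under the filter and were tested because of their levels in nicotine 1 and 3. At an unadjusted p under 0.05 by limma there were 1 higher and 1 lower, against 4.28% and 5.84% of all genes. With array weights, 2 were called lower, Vamp4 (-0.28 ± 0.05 SE, adjusted p = 0.0155 by limma) and Vamp7 (-0.31 ± 0.08, adjusted p = 0.0437), SNAREs of trans-Golgi, endosomal and lysosomal vesicles. Under that setting 7.33% of all genes were called.

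Neuronal paralogues of the set were high in the same mice as the set itself. Of 15 tested, Rab3c and Sv2c had water means under the filter and were tested because of their levels in nicotine 1 and 3, so they are left out of the counts. Of the other 13, 10 were above every water mouse in nicotine 1 and 12 in nicotine 3, where 34.1% and 38.0% of all genes were. Their median difference between groups was 0.69 log2 units. Syt2, a fast calcium sensor like Syt1, differed by 0.80 ± 0.36 log2 units (SE), and Rab3c, close to Rab3a, by 1.29 ± 0.67. The water mean of Rab3c was 6.22. Syngr1 (synaptogyrin 1), of the same family as Syp, differed by 0.69 ± 0.37. Vamp1, the neuronal relative of Vamp2, differed from the water mean by -0.28 in nicotine 1 and -0.50 in nicotine 3. Syn3 differed from it by -0.16 in nicotine 1 and 0.84 in nicotine 3.

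Widely expressed paralogues were mostly low in the mice where the neuronal forms were high. Of 18 tested, 12 were below every water mouse in nicotine 1 and 13 in nicotine 3, where 38.6% and 42.2% of all genes were, and the median difference was -0.32 log2 units. Above every water mouse were 4 in nicotine 1 and 5 in nicotine 3, where 34.1% and 38.0% of all genes were. Among these was Syt11, named after its values were seen, at 1.13 and 3.65 above the water mean. Snap23, the form of Snap25 used by epithelial and blood cells, differed from the water mean by -2.03 in nicotine 1 and -2.66 in nicotine 3. Vamp8, a SNARE of secretory granules in exocrine cells, differed by -0.49 and -3.84. Syngr2, of the synaptogyrin family, differed by -0.56 and -2.13. Sypl, the widely expressed relative of Syp, had each of the 5 nicotine mice under the lowest water mouse, with a difference of -0.64 ± 0.34 (SE); 2.88% of all genes had that pattern, and Sypl is named after its values were seen. Syt7 (0.42 ± 0.18 SE), a slow calcium sensor, and Vamp7 (-0.48 ± 0.21) were the 2 genes with an unadjusted p under 0.05, each with an adjusted p of 0.458 by limma. The luminal marker mean was lowest in nicotine 3 and next lowest in nicotine 1, as given above; its part in the low values was not tested.

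Docking and priming genes went both ways, in shares near those of all genes. Of 21 tested, 10 were above and 8 below every water mouse in nicotine 1, where 34.1% and 38.6% of all genes were. In nicotine 3, 6 were above and 11 below, where 38.0% and 42.2% of all genes were, with a median difference of -0.05 log2 units. Unc13a, the neuronal priming factor and 1 of the genes with a profile closest to the set, differed from the water mean by 2.26 in nicotine 1 and 2.58 in nicotine 3. Stxbp2, the syntaxin chaperone of epithelial and blood cells, differed from the water mean by -0.32 in nicotine 1 and -2.21 in nicotine 3. Cadps2, a priming factor of dense-core granules, differed by 0.16 and -2.81. The granule tether gene Sytl5 differed between groups by -0.89 ± 0.47 log2 units (SE), Stxbp3 by -0.51 ± 0.255, and Napa, which disassembles used SNAREs, by -0.10 ± 0.125.

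Active zone scaffold genes, which organise release sites, had 15 tested members, of which Rimbp2 and Erc2 had water means under the filter and are left out of the counts. Of the other 13, 9 were above every water mouse in nicotine 1 and 11 in nicotine 3, where 34.1% and 38.0% of all genes were. Their median difference was 0.35 log2 units. Bsn (bassoon) differed by 0.68 ± 0.31 log2 units (SE) and Rims3 by 0.53 ± 0.28. Cask (0.15 ± 0.23), Erc1 (0.22 ± 0.17) and Ppfia1 (0.05 ± 0.13), whose products also serve non-neuronal cells, differed less. Of 17 vesicle recycling genes, Amph is left out because its water mean was also under the filter. Of the other 16, 11 were above every water mouse in nicotine 1 and 14 in nicotine 3, against the same 34.1% and 38.0% of all genes. Their median difference was 0.23. Of those with the highest level or smallest p, Stx6 differed by 0.24 ± 0.12 (SE), Dnajc5 by 0.08 ± 0.07, Stx7 by -0.03 ± 0.05 and Scamp1 by -0.22 ± 0.10.

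Transporters that fill vesicles with transmitter did not share the pattern of the fusion genes. Of 7 tested, 1 was above every water mouse in nicotine 1 and 2 in nicotine 3, where 34.1% and 38.0% of all genes were. In each of these mice 2 were below every water mouse, where 38.6% and 42.2% of all genes were. The median difference was 0.035 log2 units. Slc18a1, a monoamine carrier of endocrine cells, differed from the water mean by -0.49 in nicotine 1 and -2.86 in nicotine 3. Slc17a9, a nucleotide carrier, differed by -0.34 and -1.69. Slc32a1, the carrier for GABA and glycine, differed by -0.01 and 0.59, and Slc18a3, which loads acetylcholine, by -0.08 and -0.18.

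**Figure D4:**
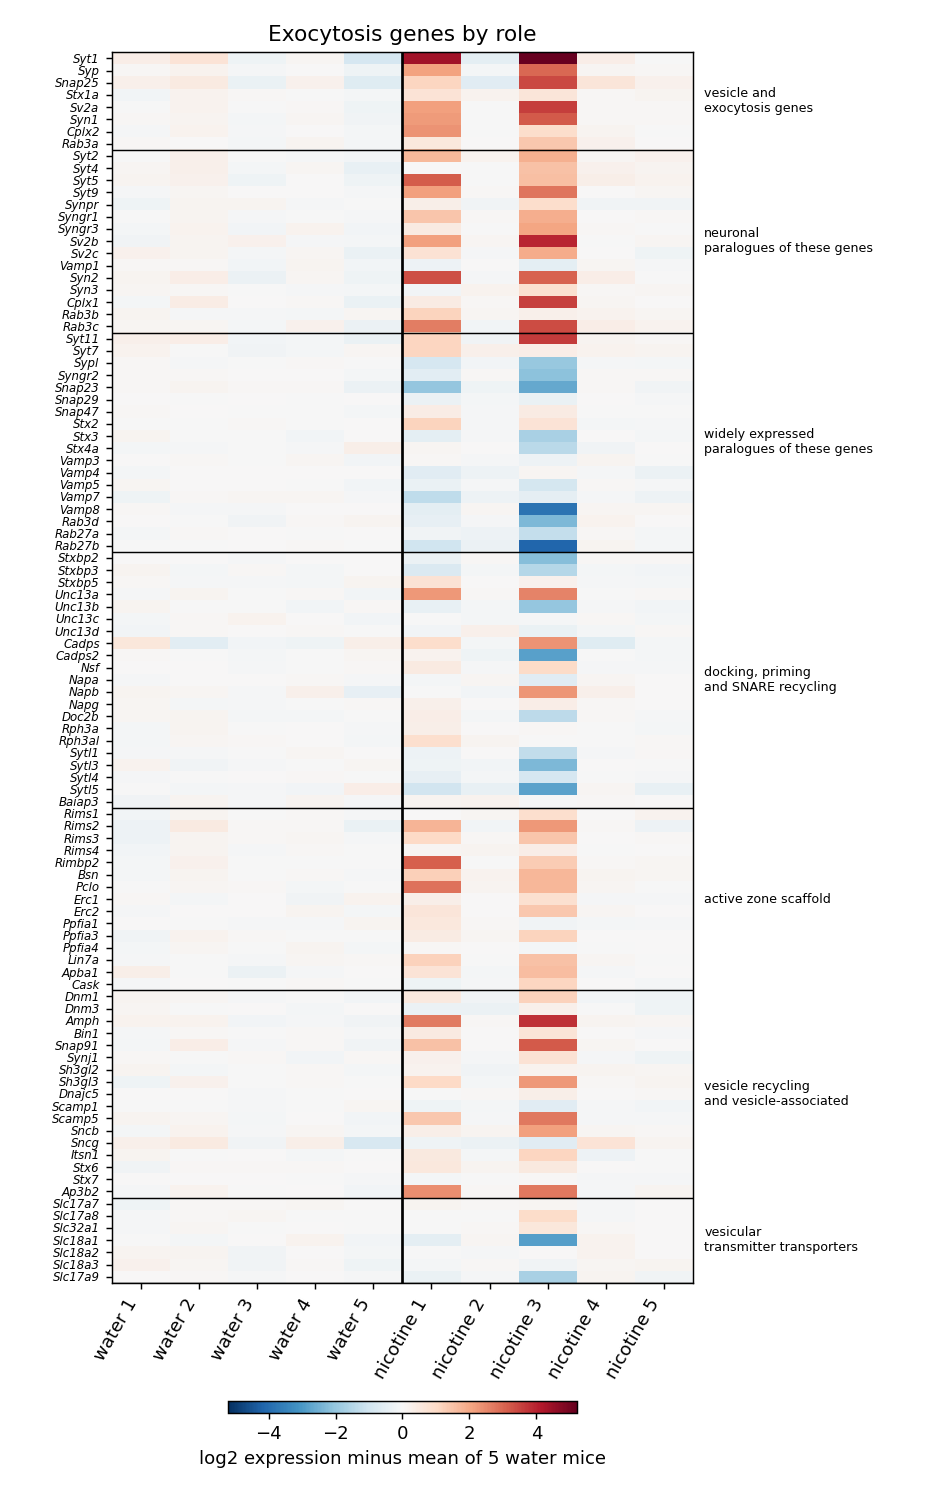
Log2 expression minus the mean of the 5 water mice for the 8 vesicle and exocytosis genes and the 93 other tested genes by role (rows) in each mouse (columns); red is above and blue below the water mean. The red blocks lie in the columns of nicotine 1 and 3 for neuronal paralogues and active zone genes, and the blue block in nicotine 3 for widely expressed paralogues.

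The genes whose profile over the 10 mice was nearest to the mean of the 8 came from several cell functions. Likeness was the root mean square difference of log2 values after subtraction of each gene's water mean. The nearest 10, from 0.125 to 0.164 log2 units away, were Elovl4, a fatty acid elongase, the calcium pump gene Atp2b2, the adhesion gene Pcdh10, the neuronal kinases Brsk1 and Brsk2, Rtn2, the neural adhesion gene Ncam1, Syt9, Aplp1 and Unc13a. Member by member, the nearest gene was the granin Scg3 for Syt1 (0.296), Syt11 for Snap25 (0.263), Brsk1 for Syp (0.090), the motor gene Kif5c for Sv2a (0.115), the calcium channel gene Cacna1b for Syn1 (0.108), Btbd11 for Cplx2 (0.101), the release-site gene Erc2 for Rab3a (0.069) and the predicted gene Gm9222 for Stx1a (0.074). Pcdh10, Scg3 and Erc2 had water means under the filter. They were tested because of their levels in nicotine 1 and 3, the mice that shape the profile.

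Markers of cell types that use this machinery were examined beside it. Of 11 tested neuroendocrine markers, Scg3 and Pcsk1 had water means under the filter; the mean of the other 9, such as Chga, was 9.35 in nicotine 1 and 10.31 in nicotine 3, against 7.28 to 7.76 in water mice. Of these 9, 8 were above every water mouse in nicotine 1 and 9 in nicotine 3, where 34.1% and 38.0% of all genes were. In the group test 0 passed, as did 0% of all genes. Among these 9, Chga differed most from the water mean in both mice, and Scg2 differed least in nicotine 1, by 0.12. Of 11 tested peripheral neuron markers, Nefm was under the filter in water; the mean of the other 10 was 7.98 in nicotine 1 and 9.02 in nicotine 3, against 7.12 to 7.73 in water mice. These 10 did not move as 1 group: 5 were above every water mouse in nicotine 1 and 7 in nicotine 3, against 34.1% and 38.0% of all genes. Nefl, a neurofilament, was 1.76 log2 units above the water mean in nicotine 1 and 3.89 above in nicotine 3. Th, the rate-limiting enzyme of noradrenaline synthesis, differed by 0.19 and -0.25, Dbh, a later enzyme of that path, by 0.06 and 0.01, and the axonal gene Stmn2 by -0.75 and 3.05. Of 10 tested skeletal muscle markers, 5 had water means under the filter. The mean of the other 5 was 10.78 in nicotine 1 and 7.97 to 8.66 in the other 9 mice. Schwann cell and glial markers averaged 7.84 in nicotine 3, 8.29 in nicotine 1 and 8.35 to 8.49 in the other 8. That low mean rests largely on Erbb3, which differed from the water mean by -4.03 in nicotine 3 and -0.925 in nicotine 1. The median difference of the 7 tested markers was -0.22 and 0.015, and Pmp22 differed by 1.19 and 0.11. Erbb3 and Pmp22 are named after their values were seen. Chga, Scg2, Nefl, Th, Dbh and Stmn2 were also not picked by a rule fixed beforehand. The mean of 9 proliferation markers was 9.61 to 9.79 in water mice, 9.99 to 10.05 in nicotine 2, 4 and 5, and 10.89 and 11.45 in nicotine 1 and 3. The part of each marker list in the vesicle gene levels was not tested.

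Among the 8 mice without nicotine 1 and 3, Syt1 and Snap25 still varied by 1.57 and 1.24 log2 units from lowest to highest, while the other 6 genes varied by 0.28 to 0.42. Both were lowest in water 5, nicotine 2 and water 3. The mean of all 11 tested peripheral neuron markers was lowest in the same 3 mice, at 7.04, 7.31 and 7.22. It includes Nefm, whose water mean was under the filter. Without Nefm, the mean of the other 10 was lowest in these mice too, at 7.12, 7.40 and 7.31. The correlations below use all 11 and were not repeated without Nefm. Over these 8 mice the level of Snap25 followed the mean of 11 with Pearson's r = 0.946 (exact permutation p = 0.00179, two-sided; adjusted over 16 relations 0.0125) and Spearman's rho = 0.976 (p = 0.000397; adjusted 0.00635). For Syt1, r was 0.917 (exact permutation p = 0.00273; adjusted 0.0125) and rho 0.952 (p = 0.00114; adjusted 0.00913). For Syp, r was 0.913 (exact permutation p = 0.00298; adjusted 0.0125) and rho 0.929 (p = 0.00223; adjusted 0.0119), over a range of only 0.42 log2 units. Without the 2 mice farthest from the median marker mean, water 3 and 5, r was 0.982 for Snap25, 0.884 for Syt1 and 0.813 for Syp over 6 mice. The relation is not shown to be particular to nerve markers. Among the 8 mice, the mean of 9 neuroendocrine markers was also lowest in water 5, nicotine 2 and water 3, at 7.28, 7.425 and 7.47. Its relation to the vesicle genes was not tested.

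For the remaining genes, r and rho differed in their calls or neither passed. For Cplx2, Syn1, Rab3a and Sv2a, r lay between 0.789 and 0.942 with adjusted exact permutation p from 0.0125 to 0.027, but rho did not pass for any of the 4 (adjusted exact permutation p from 0.0615 to 0.235). For Stx1a, r was 0.25 (exact permutation p = 0.538; adjusted 0.574). Against the mean of 7 Schwann cell and glial markers, r for the 8 genes ran from 0.214 to 0.707 and 0 of 8 passed after adjustment over the same 16 relations (smallest adjusted exact permutation p = 0.0889; 1 at an unadjusted p under 0.05). That mean ran only from 8.35 to 8.49 in these mice, against 7.04 to 7.70 for the neuron marker mean. Over so narrow a range a relation is hard to detect, so no contrast between the marker lists is drawn. Seminal vesicle markers differed between these mice, with means from 12.1 to 13.2 in water 3, 4, 5 and nicotine 5 and from 7.21 to 8.54 in water 1 and 2 and nicotine 2 and 4. Each kind holds 4 mice, too few for a value within it. The relation was looked for after the wide spread of Syt1 and Snap25 had been seen.

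**Figure D5:**
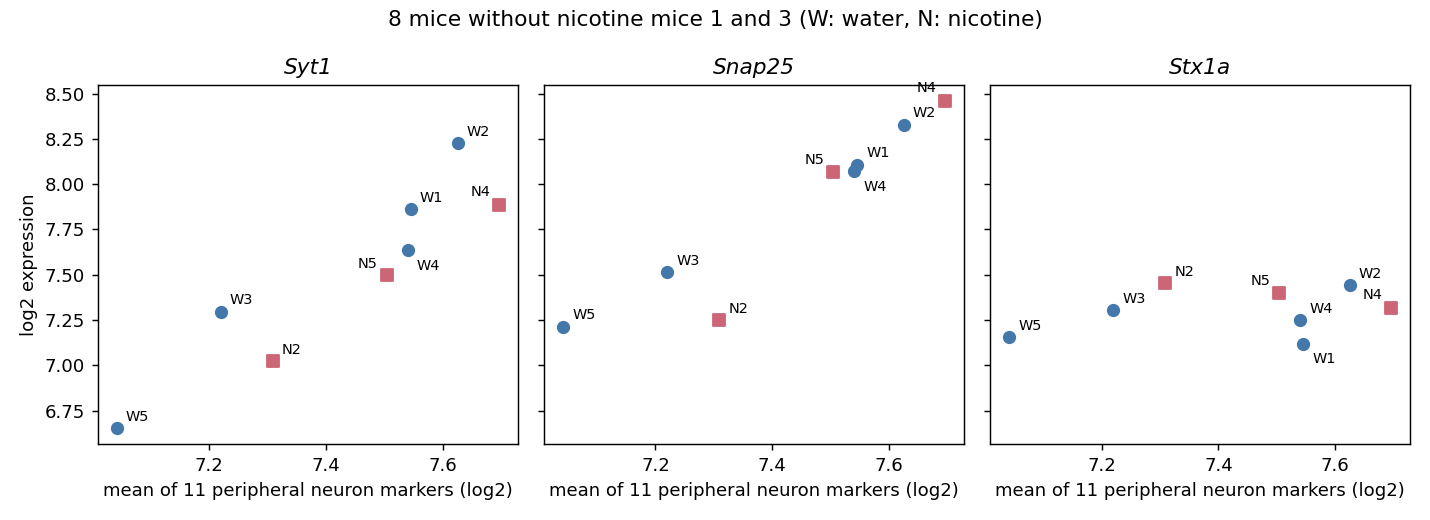
Log2 expression of Syt1, Snap25 and Stx1a (y) against the mean of 11 peripheral neuron markers (x) in the 8 mice without nicotine mice 1 and 3; circles are water and squares nicotine mice. Syt1 and Snap25 climb with the marker mean from water 5 to nicotine 4 and water 2, with r of 0.917 and 0.946, and Stx1a does not, with r of 0.25.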

How the data were processed

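RNA isolated with Trizol was biotin-labelled after amplification, and each sample was run on its own Affymetrix array, per the labels' protocols. The deposited table gives log2 values for 35556 probe sets on 10 arrays. How the authors corrected, summarised and normalised them is not stated in what was used here. The values ran from 3.59 to 14.12, with array medians from 7.50 to 7.57, a range that fits a log2 scale. Scan dates were not used here and no batch was examined.

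Gene symbols came from the platform's annotation table, possibly outdated: 21789 probe sets had 1 gene symbol, 1621 several, and 12146 were unnamed in that table. The 25% of genes with the lowest mean were left out, and 14953 were tested with limma 3.58.1 (lmFit and eBayes) in R 4.3.3, two-sided, with Benjamini-Hochberg adjustment. Only the limma fit was tested on simulated data, with noise drawn independently for each gene. The simulation held no arrays that depart over many genes at once, as nicotine 1 and 3 do. The vesicle genes, the other lists and the alternatives were chosen with earlier results of these data known. Named genes were all of the set, those nearest in profile, and per list by role the 3 with the highest mean and the 2 with the smallest p. No such rule held for genes named from the cell type marker lists, Pbsn among them. Any other is marked where it appears or is named as an extreme in a figure caption.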

Additional observations from a re-analysis of the deposited data

Results flagged for a closer look

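Of 104 groups of 5 mice checked, 22 had a highest or lowest mouse whose gap to its neighbour, as a share of the group's range, was above 0.71; chance gives about 1 in 20. None of the 8 vesicle and exocytosis genes was among them, but the check looks at a single mouse and its neighbour. Nicotine 1 and 3 were both high in these genes, so each narrowed the gap of the other. Syt1, for instance, was at 11.89 and 12.71 in them and next at 7.89 in nicotine 4. The lack of a flag therefore does not mean that no mouse stood apart. Nicotine 3 was the far low mouse for Syngr2 (0.715), Vamp8 (0.85), Stxbp2 (0.827), Cadps2 (0.864), Scamp1 (0.737), Slc18a1 (0.781) and Slc17a9 (0.743), and the far high mouse for Cask (0.802), Dnajc5 (0.719) and Slc32a1 (0.855). It was also far low for the means of the widely expressed paralogues (0.712), the Schwann cell and glial markers (0.741), the smooth muscle markers (0.723) and the prostate luminal markers (0.823). For the Schwann cell and glial mean this rests largely on Erbb3, at -4.03 from its water mean in nicotine 3. Nicotine 1 was far high for Syt7 (0.785) and for the skeletal muscle marker mean (0.918). That mean holds all 10 tested markers, of which 5 had water means under the filter and were tested because of nicotine 1. Among water mice, water 2 was far high for Syngr1 (0.725), water 5 far low for Syngr2 (0.732) and Snap23 (0.804) and far high for Sytl5 (0.753) and Scamp1 (0.745), and water 1 far low for Stx6 (0.728).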

How the results depend on the processing

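Across 22 alternatives, the number of vesicle genes past the threshold was 0 in each. Without nicotine mice 1 and 3 the median difference fell from 0.99 to 0.038 log2 units and Syt1 turned to -0.067; with the first principal component as covariate Snap25 turned to -0.023, and the median was 0.11. With the seminal vesicle marker mean as covariate the median was 0.566. The cause was not tested. The 1 gene with an unadjusted p under 0.05, Stx1a, was no longer under it (0 genes) with the lower expressed genes left out (where Stx1a was not tested), array weights, the mouse number as a replicate block, the first principal component or the mean of the seminal vesicle markers as covariate, or without nicotine mice 1 and 3. Leaving out each mouse in turn gave 0 to 1 such genes (0 without water 1, 4 or 5 or nicotine 1 or 3) and medians from 0.54 (without nicotine 3) to 1.32 (without nicotine 2). With array weights 1096 of all genes and 2 of the other exocytosis genes passed, against 0 and 0; the median of the vesicle genes was then 0.08. Mouse numbers 1 to 5 occur in both groups with no stated link, and deviations of same-numbered mice correlated between -0.129 and 0.164, so they were not taken as pairs; the replicate block gave Stx1a an unadjusted p of 0.0545 by limma (adjusted 0.506) and a median of 0.99, and changed no call after adjustment. Depth has no counterpart here; the precision is that of 5 arrays per group.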
